A study of Mus musculus with 18 samples.

Results

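The mouse gene Sfmbt2 carries in one of its introns a long array of miRNA hairpins of the miR-297, miR-466, miR-467 and miR-669 subfamilies, and the listed small RNAs of these subfamilies are described here in sperm of ICR mice, an outbred strain. Members were every known miRNA whose name begins with one of these 4 numbers followed by a letter or a hyphen, with any copy or arm suffix. This gave 79 of 1739 known miRNA names (4.54%) in the 16 libraries that list their known miRNAs whole. Per the labels, 18 libraries form 6 groups of 3. F0 NHS males received ammonia (NH3) and hydrogen sulphide (H2S) over 5 weeks, starting at 3 weeks of age, and were mated with untreated females. F0 Con males are the controls of that generation. F1 NHS males are the untreated sons, mated at 8 weeks, with F1 Con as their controls, and F2 NHS males are untreated males of the next generation, with F2 Con as theirs. The labels give no dose or route of exposure. They do not state whether replicates come from different animals, and the spread behind each p-value may in part be technical. The lists of F1 NHS replicates 1 and 3 stop before the known miRNAs, so replicate 2 is the sole F1 NHS library below.

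Sfmbt2 encodes a Polycomb group protein and is an imprinted gene expressed from the paternal allele in the mouse placenta and early embryo. Its intronic miRNAs are known from rodents, expanded by local duplication, and are best known from embryonic stem cells and placenta. As in any miRNA hairpin, the 5′ and the 3′ side can each yield a mature strand, the 5p and the 3p arm, and a mature strand pairs with mRNAs mainly through its seed, bases 2 to 8.

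In the GENCODE M21 annotation of GRCm38, Sfmbt2 lies on chromosome 2 at 10370510 to 10595253, on the plus strand. Of 81 hairpins of these subfamilies annotated in RefSeq, 71 lie inside it, all on its own strand. None of the 71 overlaps an exon, and all lie in intron 11 of its principal GENCODE transcript. They span 51.6 kb, from 96.2 kb to 148 kb after the gene start. The other 10 hairpins lie on other stretches of the genome. By these hairpins, 63 members come from inside Sfmbt2 alone, 5 from inside and elsewhere, 9 from elsewhere alone, and the 2 arms of miR-466a were not placed by name. Among the hairpins inside Sfmbt2, miR-669g and miR-466 (annotated without a letter) matched no listed member by name. The label therefore holds for most members, and the 9 that share only the subfamily name are given apart where it matters. Among 7299 predicted precursors in the deposited position table, 0 lie inside Sfmbt2.

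Mature sequences were matched in RefSeq (GRCm38.p6) for 8 of the 79 members, all from hairpins outside Sfmbt2. They are shown as the only members with a sequence in that source, with the seed in capitals. All 8 carry alternating CA or UG repeats, which could not be read for the other 71 members.
miR-466i-3p: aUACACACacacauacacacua
miR-466q: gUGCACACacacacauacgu
miR-467f: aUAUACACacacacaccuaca
miR-467g: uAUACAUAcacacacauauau
miR-466j: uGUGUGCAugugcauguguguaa
miR-466k: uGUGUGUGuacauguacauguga
miR-467h: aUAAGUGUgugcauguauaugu
miR-669n: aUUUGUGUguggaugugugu

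The first 4 hold the letters CACACA and the other 4 the letters UGUGUG, read on the mature strand only, with overlapping copies counted once per sequence. Of 1679 mature sequences in the same table, 40 (2.38%) hold either motif, with the 8 included and the other 71 members absent. The longest alternating run of CA or UG was 7 to 12 bases in the 8 members, against a median of 3 bases over the table. No pair of the 8 shares a seed. Within that table, miR-467h alone among the 8 shares its seed with another mature miRNA, miR-668-5p. Seeds shared with the 71 absent members could not be seen. miR-466i lies in an intron of Cdk13 on the opposite strand (mature 3p strand at chr13:17747552-17747573), miR-466q in a Tnik intron on the same strand (chr3:28419988-28420007), miR-467f opposite an Fxr2 intron (chr11:69635419-69635439) and miR-466k opposite an intron of Gm37240 (chr3:85467396-85467418). miR-466q averaged 14.1 TPM, miR-466i-3p 11.4 and miR-466k 5.39, while miR-467f, miR-467h, miR-466j, miR-467g and miR-669n each averaged under 1 TPM.

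Levels are given as the deposited TPM values, which here are tags per 1000000 reads of the library with no length term. Libraries held 17224478 to 29430555 reads, and 15676 to 86401 of those in the 16 used libraries belonged to members. Where a list stops early, the library total was inferred from its deposited values. Known miRNAs took 13.3% to 57.4% of the reads, so a level in TPM and a share of known miRNA reads can differ in direction. Sums of all members and of the subfamilies are given on both scales. Sums of the markers and of the members outside Sfmbt2 are in TPM only, so their direction may depend on the scale. In 6 of the 16 libraries a tRNA-Ala fragment that the table lists as a predicted miRNA stood at 2378 to 18720 TPM, against 42.9 to 223.5 TPM in the other 10. The rich libraries are F0 NHS 3, F0 Con 2, F1 NHS 2, F2 NHS 1, F2 Con 1 and F2 Con 2. Germ cell miRNAs (miR-34b, miR-34c, miR-449a and miR-449c) were present, with 6 of 8 listed arms passing the filter on low counts. Their sum ranged over 6786 to 18656 TPM in F0 NHS and 4017 to 7881 in F0 Con, was 11095 in F1 NHS and 12751 to 20472 in F1 Con, and ranged over 8799 to 12666 in F2 NHS and 18631 to 22170 in F2 Con. The smooth muscle miRNAs miR-143 and miR-145a, with 4 of 4 arms passing, ranged over 47153 to 119136 TPM in F0 NHS and 62659 to 169501 in F0 Con, were at 31506 in F1 NHS and 5927 to 13214 in F1 Con, and ranged over 21107 to 34554 in F2 NHS and 12105 to 29705 in F2 Con. Epithelial miRNAs (11 of 12 arms) ranged over 12280 to 28622 TPM in F0 NHS and 20899 to 28970 in F0 Con, were at 13713 in F1 NHS and 4694 to 19983 in F1 Con, and ranged over 15147 to 21419 in F2 NHS and 6237 to 9248 in F2 Con. Red blood cell miRNAs (7 of 7) ranged over 20355 to 36006 TPM in F0 NHS and 10331 to 77971 in F0 Con, were at 59231 in F1 NHS and 16564 to 34395 in F1 Con, and ranged over 9240 to 24445 in F2 NHS and 4403 to 11774 in F2 Con. Leukocyte miRNAs (10 of 10) ranged over 1569 to 2356 TPM in F0 NHS and 974 to 3521 in F0 Con, were at 1864 in F1 NHS and 1111 to 3912 in F1 Con, and ranged over 3143 to 3888 in F2 NHS and 1854 to 4696 in F2 Con. Skeletal and cardiac muscle miRNAs (4 of 12) ranged over 254 to 1553 TPM in F0 NHS and 482 to 1248 in F0 Con, were at 286 in F1 NHS and 68.8 to 216 in F1 Con, and ranged over 245.5 to 983 in F2 NHS and 94.5 to 167 in F2 Con. Of all these markers, miR-208a had no reads in 2 libraries and miR-208b in 7, and each of the others had reads in all 16. Whether sperm or other cells carried the markers, and their part in the results below, was not tested. Fewer cells of a type and less RNA per cell cannot be told apart.

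The members together were a small part of sperm miRNA. Their summed level had a median of 1705 TPM over the 16 libraries, with a range of 740 to 2982 TPM, and they took 0.182% to 0.778% of known miRNA reads. Members from inside Sfmbt2 alone supplied 96.4% ± 1.86 of the summed TPM (SD, n = 16), and the 9 members from elsewhere 2.32% ± 1.45. The miR-467 subfamily was the largest in every library, with 62.6% ± 6.82 of the members' TPM from 13 members. The miR-669 subfamily followed with 26.4% ± 5.60 from 29 members, then miR-466 with 9.25% ± 2.87 from 31 members and miR-297 with 1.78% ± 0.617 from 6. The median member averaged 74.8 TPM in miR-467, 9.96 in miR-669, 5.36 in miR-297 and 1.79 in miR-466.

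Few members made up most of the signal. The 5 highest held 44.2% of the members' mean TPM and the 12 highest 71.7%. All 79 were listed in at least 1 library and 55 in all 16, while 31 averaged 10 TPM or more and 24 under 1 TPM. The filter for testing (at least 1 CPM, in reads of the library total, in at least 3 libraries) kept 61 members, and the highest of the 18 left out averaged 0.721 TPM. A count of 3 reads corresponds to 0.102 to 0.166 TPM in these libraries, so the lowest members rest on a handful of reads.

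**Figure D1:**
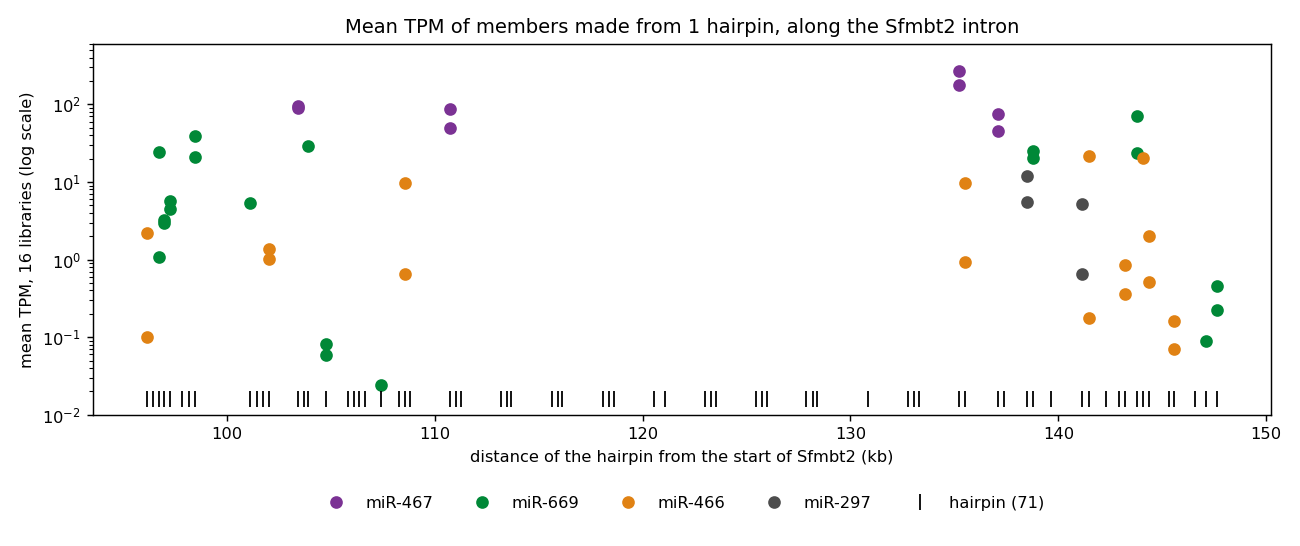
Mean TPM over 16 libraries (log scale) of members made from 1 hairpin inside Sfmbt2, against the distance of that hairpin from the gene start in kb; ticks at the bottom mark all 71 hairpins and colours mark the subfamilies. The highest point is miR-467e-5p at 270 TPM in the last stretch, and the middle stretch holds hairpins but no member made from a single one.

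Along the intron, the hairpins were split into 3 stretches of equal length. The first held 28 hairpins and 23 members made from a single hairpin, with miR-467c-5p the highest at 95.7 TPM on average. The middle stretch held 19 hairpins and 0 such members. The last held 24 hairpins and 26 such members, with miR-467e-5p the highest at 269.7 TPM. Number of copies and level did not run in parallel: the 58 members from 1 hairpin had a median of 3.84 TPM, the 8 from 2 to 3 hairpins 11.985 TPM and the 11 from 4 or more 5.51 TPM. Among the last, miR-467a-3p was the highest at 142.03 TPM. These are comparisons of reads, and reads of near-identical members may have been shared out or assigned to 1 name by a rule not given in the sources used here.

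**Figure D2:**
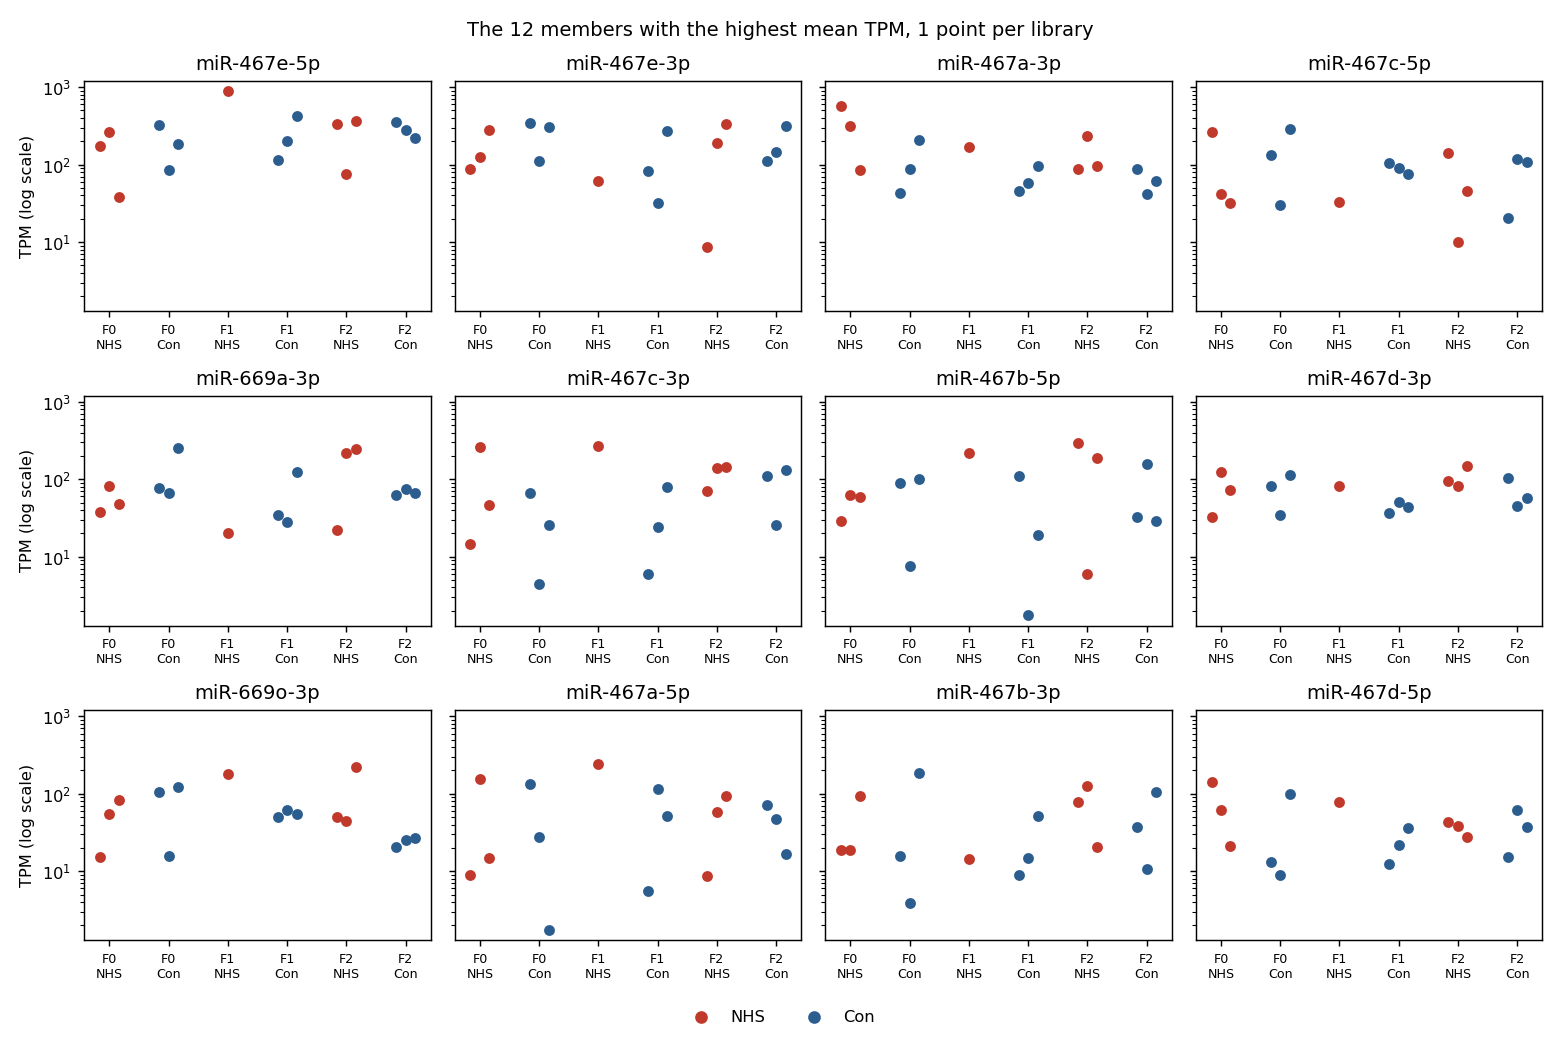
TPM (log scale) of the 12 members with the highest mean, 1 panel per member and 1 point per library, with NHS in red and Con in blue in generations F0, F1 and F2. Single arms spread widely within a group, as in the F2 NHS libraries of miR-467e-3p at 8.63, 193 and 333 TPM.

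miR-467e-5p was the highest member on average. It stood at 176, 259.9 and 38.3 TPM in F0 NHS and 324, 85.5 and 187 TPM in F0 Con. It was at 879 TPM in F1 NHS and at 116, 199 and 421 TPM in F1 Con. In F2 NHS it was at 335.3, 76.3 and 369.6 TPM, and in F2 Con at 352, 276 and 222 TPM. The F0 and the F2 groups overlapped, and the single F1 NHS library lay above all 3 F1 Con libraries.

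Its partner from the same hairpin, miR-467e-3p, stood at 86.8, 124 and 279 TPM in F0 NHS and 342, 109.8 and 306 TPM in F0 Con. It was at 60.9 TPM in F1 NHS and at 82.7, 32.2 and 269 TPM in F1 Con, and at 8.63, 193 and 333 TPM in F2 NHS and 112, 147 and 319 TPM in F2 Con. All 3 pairs of groups overlapped. In F2 NHS replicate 1 the 5p arm was high where the 3p arm was at its lowest, and in F0 NHS replicate 3 the order was the other way round.

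miR-467a-3p, the third highest, stood at 563, 313 and 84.5 TPM in F0 NHS and 43.2, 86.9 and 208.1 TPM in F0 Con. It was at 169 TPM in F1 NHS and 45.1, 57.9 and 96.3 TPM in F1 Con. It was at 86.7, 232 and 94.9 TPM in F2 NHS and 88.3, 41.8 and 62.0 TPM in F2 Con. The F0 and the F2 groups overlapped, and its levels in the NHS group averaged above those in the Con group in each generation.

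The remaining 9 of the 12 highest were miR-467c-5p, miR-669a-3p, miR-467c-3p, miR-467b-5p, miR-467d-3p, miR-669o-3p, miR-467a-5p, miR-467b-3p and miR-467d-5p, with means between 95.7 and 44.9 TPM. All 12 come from inside Sfmbt2. The highest library was a median of 25.8 times the lowest in these 12 members, with miR-467d-3p the steadiest at 4.58 times and miR-467b-5p the most variable at 164 times. Within groups, the coefficient of variation had a median of 71.3% over the 61 tested members and 65.9% over all 735 tested miRNAs.

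**Figure D3:**
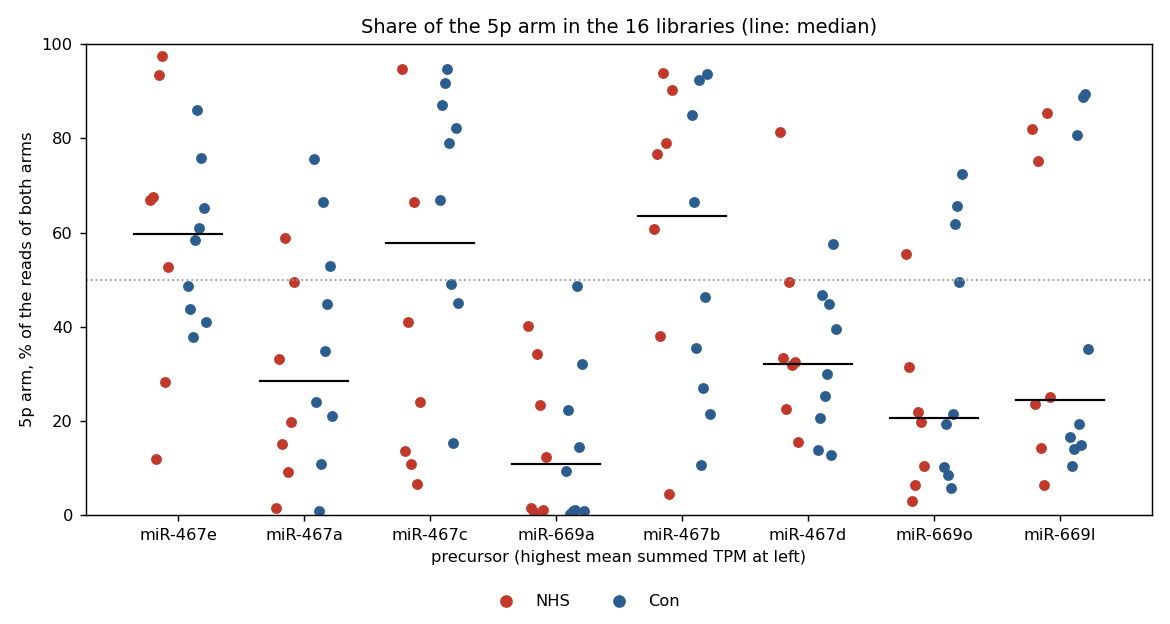
Share of the 5p arm among the reads of both arms (%), for the 8 precursors with the highest summed TPM and both arms listed, 1 point per library with NHS in red on the left and Con in blue on the right, and a line at the median of the 16 libraries. For miR-467e the share ran between 12.1% and 97.5%, while for miR-669a it stayed under 50% in all 16 libraries.

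Which arm was the higher one changed between libraries for most precursors. The 5p arm of miR-467e held 12.1% to 97.5% of the reads of both arms and was the higher arm in 10 of 16 libraries. miR-467c was split evenly, with the 5p arm higher in 8 libraries and a range of 6.68% to 94.7%. The 5p arm of miR-467b was higher in 9 libraries, with a range of 4.47% to 93.9%. By contrast, the 3p arm was higher in all 16 libraries for miR-669a, miR-669f, miR-466d and miR-466i. Their 5p arms held at most 48.6%, 15.5%, 5.36% and 43.4%, in that order. For miR-669a the 3p arm sums miR-669a-3p and the copy miR-669a-3-3p. Against miR-669a-3p alone, miR-669a-5p was the higher in F1 Con replicate 3 (132 against 123 TPM) and F2 NHS replicate 1 (25.7 against 22.1 TPM).

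Over the 20 member precursors with both arms listed and a mean sum of 10 TPM or more, the higher arm differed between libraries in 16 (80%). Over all known miRNA precursors under the same rule it did so in 149 of 243 (61.3%). The range of the 5p share had a median of 77.3 percentage points in the member precursors and 64.6 in all. Both values were higher in the member precursors, and the difference was not tested.

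Summed over arms and copies, the precursors varied less than their arms. miR-467e summed to 195 TPM at the lowest (F0 Con replicate 2) and 939 TPM at the highest (F1 NHS replicate 2), a ratio of 4.81, where its 3p arm alone had a ratio of 39.6. The coefficient of variation within groups had a median of 52.6% over the 34 tested member precursors and 47.7% over all 461 tested precursors.

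**Figure D4:**
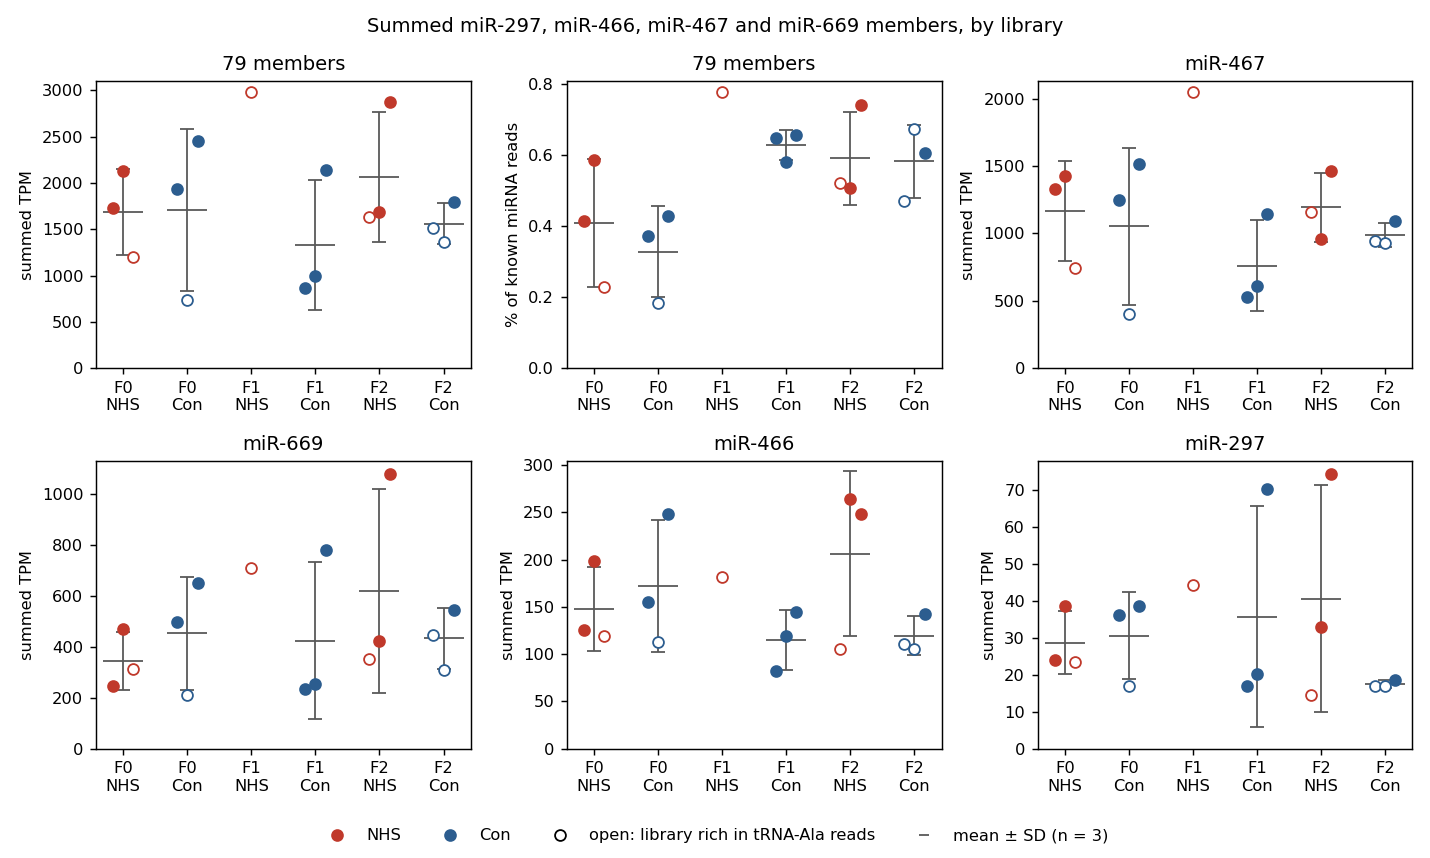
Summed TPM of all 79 members, their share of known miRNA reads (%), and summed TPM of each subfamily, 1 point per library, with NHS in red left of Con in blue in each generation and bars at the mean ± SD where a group has 3 libraries; open points are libraries rich in tRNA-Ala reads. In the summed TPM of all members the groups overlap in F0 and in F2, and the single F1 NHS library at 2982 TPM lies above the 3 F1 Con libraries.

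The F0 comparison sets exposed males against their own controls. The summed members stood at 1728, 2130 and 1198 TPM in F0 NHS and at 1933, 740 and 2452 TPM in F0 Con. The groups overlapped, with means of 1686 ± 468 and 1709 ± 878 TPM (SD, n = 3 each) and a log2 ratio of these means of -0.02. The SD of the libraries' log2 values, as the root of the summed variances of both groups, was 1.01. It is a spread of libraries and not an error of that ratio. As shares of known miRNA reads they averaged 0.409% ± 0.179 in F0 NHS and 0.328% ± 0.129 in F0 Con. The lowest library of each group was the 1 rich in tRNA-Ala reads. In the others the sums were 1728 and 2130 TPM in F0 NHS and 1933 and 2452 TPM in F0 Con. miR-467 averaged 1166 ± 370 TPM in F0 NHS and 1054 ± 581 in F0 Con, miR-669 343 ± 114 and 452 ± 224, miR-466 148 ± 44.3 and 172 ± 69.6, and miR-297 28.7 ± 8.55 and 30.6 ± 11.8, in the same order of groups. As shares of known miRNA reads, miR-467 averaged 0.284% ± 0.129 in F0 NHS and 0.201% ± 0.0892 in F0 Con, miR-669 0.0824% ± 0.0403 and 0.0870% ± 0.0318, miR-466 0.0358% ± 0.0168 and 0.0337% ± 0.00843, and miR-297 0.00695% ± 0.00324 and 0.00597% ± 0.00154. The direction thus differed between the scales for miR-466 and miR-297, and the ranges of the groups overlapped on both scales.

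For single members in F0, edgeR's quasi-likelihood test called 0 of 61 at a Benjamini-Hochberg adjusted p under 0.05, where it called 0 of 735 miRNAs in all (0%), and DESeq2 called 0 members and 1 miRNA in all (0.136%). At an unadjusted p under 0.05 edgeR had 6 members, 4 higher and 2 lower, against a background of 6.12% of all tested miRNAs. In all, 26 members were higher and 35 lower, with a median log2 fold change of -0.16, while 390 of 735 miRNAs were higher with a median of 0.10. The groups did not overlap for 5 members that were higher, where the background was 8.03%, and for 2 that were lower, where it was 4.76%.

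miR-669d-2-3p had the smallest p of the members in F0. It stood at 3.67, 25.2 and 9.88 TPM in F0 NHS and at 0.941, 0.850 and 2.94 TPM in F0 Con, with no overlap. Its log2 fold change was 3.22 (SE 0.91, edgeR adjusted p = 0.706), while miR-669d with arms and copies summed had 0.05 (SE 0.50). miR-466i-5p, from the hairpin in Cdk13, stood at 0.937, 2.89 and 1.47 TPM in F0 NHS and at 5.18, 7.56 and 6.35 TPM in F0 Con, with no overlap (log2 fold change -1.83, SE 0.68, edgeR adjusted p = 0.706). The other 3 by p were miR-466e-5p (-2.59, SE 1.03), miR-466o-3p (2.77, SE 1.22) and miR-467a-3p (1.71, SE 0.79), and edgeR gave each an adjusted p of 0.735.

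The 4 tested members from outside Sfmbt2, which are miR-466i-3p, miR-466i-5p, miR-466k and miR-466q, all had negative log2 fold changes in F0, with a median of -1.20. Those from inside alone were split, with 25 higher and 27 lower and a median of -0.03. The summed level of the 9 outside members was 13.5, 36.6 and 18.8 TPM in F0 NHS and 36.3, 51.4 and 67.8 TPM in F0 Con, so 1 NHS library lay just above the lowest Con library. With arms summed, miR-466k (-1.56, SE 0.57) and miR-466i (-1.35, SE 0.52) each had an edgeR adjusted p of 0.416.

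The F1 comparison asks about sons that were never exposed, and rests on 1 NHS library. Summed members stood at 2982 TPM in F1 NHS and at 862, 1000 and 2141 TPM in F1 Con. The NHS library was above all 3, with a log2 ratio of 1.16 in TPM. Against known miRNA reads the same library held 0.778%, and the Con libraries 0.647%, 0.580% and 0.657%, with a log2 ratio of 0.31. The F1 NHS library is rich in tRNA-Ala reads and no F1 Con library is, so this and the line cannot be told apart. miR-467 was at 2048 TPM in F1 NHS and at 528, 607 and 1147 TPM in F1 Con. As a share of known miRNA reads it was 0.534% in F1 NHS and averaged 0.367% ± 0.0257 in F1 Con. On that scale the other subfamilies were not higher in F1 NHS: miR-669 was at 0.185% and averaged 0.188% ± 0.0469 in F1 Con, miR-466 at 0.0473% and 0.0582% ± 0.0126, and miR-297 at 0.0116% and 0.0153% ± 0.00547. In TPM they were at 708.7 in F1 NHS and 423 ± 309 in F1 Con for miR-669, 181 and 115 ± 31.6 for miR-466, and 44.3 and 35.8 ± 29.99 for miR-297.

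Of the 61 members in F1, edgeR called 0 (0 of 735 in all, 0%) and DESeq2 0 (7 in all, 0.952%), which gave 8 members no adjusted p. At an unadjusted p under 0.05 edgeR had 3 members, all higher, against a background of 5.99%. A total of 35 members were higher and 26 lower, with a median log2 fold change of 0.26, against -0.29 over all tested miRNAs. miR-466c-3p had the smallest p. It was at 44.2 TPM in F1 NHS and at 5.39, 12.1 and 7.22 TPM in F1 Con (log2 fold change 1.80, SE 0.72, edgeR adjusted p = 0.745). miR-669e-3p (3.29, SE 1.43), miR-669m-3p (3.71, SE 1.62), miR-467c-3p (2.61, SE 1.38) and miR-466o-3p (2.75, SE 1.48) had the same edgeR adjusted p.

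In F2, the untreated generation after that, summed members stood at 1629, 1682 and 2871 TPM in F2 NHS and at 1519, 1362 and 1796 TPM in F2 Con. The groups overlapped, with means of 2060 ± 702 and 1559 ± 220 TPM (SD, n = 3 each) and a log2 ratio of these means of 0.40. The SD of the libraries' log2 values, taken as in F0, was 0.50. As shares of known miRNA reads the means were 0.590% ± 0.131 in F2 NHS and 0.582% ± 0.103 in F2 Con. Both the lowest NHS library and the 2 lowest Con libraries were rich in tRNA-Ala reads. miR-466 averaged 206.1 ± 87.3 TPM in F2 NHS and 119.5 ± 20.2 in F2 Con, miR-669 619 ± 402 and 432.9 ± 119, miR-467 1195 ± 255 and 989 ± 87.3, and miR-297 40.6 ± 30.8 and 17.5 ± 1.02, in the same order. As shares of known miRNA reads, miR-467 was lower in F2 NHS, at 0.346% ± 0.0494 against 0.373% ± 0.0837 in F2 Con, opposite to its TPM. The shares of miR-669 were 0.173% ± 0.0921 in F2 NHS and 0.158% ± 0.0233 in F2 Con, those of miR-466 0.0592% ± 0.0233 and 0.0448% ± 0.00941, and those of miR-297 0.0113% ± 0.00740 and 0.00663% ± 0.00163.

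**Figure D5:**
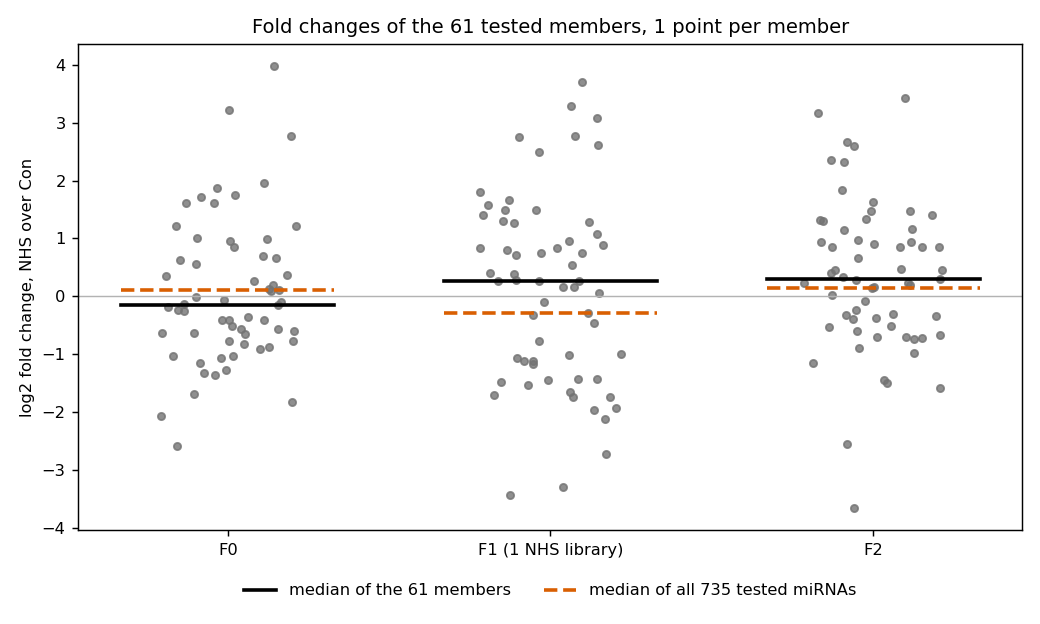
Log2 fold change of NHS over Con for the 61 tested members, 1 point per member, in F0, F1 and F2, with the members' median as a solid line and the median of all 735 tested miRNAs as a dashed line. The members' medians are -0.16, 0.26 and 0.30, and single members lie several log2 units to both sides in each generation.

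For single members in F2, edgeR called 0 of 61 (0 of 735 in all, 0%), and DESeq2 called 0 members and 28 miRNAs in all (3.81%). At an unadjusted p under 0.05 edgeR had 7 members, 6 higher and 1 lower, against a background of 10.9%. In all, 38 members were higher and 23 lower, with a median log2 fold change of 0.30 against 0.15 over all tested miRNAs. In the same comparison 11 of 11 tested epithelial arms, 4 of 4 smooth muscle arms and 4 of 4 muscle arms were higher, with median log2 fold changes of 1.22, 1.12 and 1.96. Of the other markers, 6 of 7 red blood cell, 6 of 10 leukocyte and 4 of 6 germ cell arms were higher (medians 1.10, 0.25 and 0.35). edgeR called 0 of them. The summed epithelial and muscle levels were higher in F2 NHS without overlap, and the summed germ cell level was lower without overlap (8799 to 12666 TPM in F2 NHS, 18631 to 22170 in F2 Con). Their part in the values of the members was not tested. The groups did not overlap for 7 higher members (background 11.7%) and for 2 lower members (background 4.63%).

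miR-466a-3p had the smallest p in F2. It stood at 6.78, 20.0 and 28.4 TPM in F2 NHS and at 1.59, 2.10 and 0.306 TPM in F2 Con, with no overlap (log2 fold change 3.43, SE 1.21, edgeR adjusted p = 0.294). Both arms of miR-466a together had a log2 fold change of 3.18 (SE 0.79, edgeR adjusted p = 0.0972 over 461 precursors). miR-466e-3p stood at 6.36, 47.4 and 11.1 TPM in F2 NHS and at 1.84, 2.60 and 4.55 TPM in F2 Con, again with no overlap (2.60, SE 0.92, edgeR adjusted p = 0.294).

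miR-466c-3p stood at 14.1, 24.8 and 21.4 TPM in F2 NHS and at 5.65, 6.70 and 7.92 TPM in F2 Con, with no overlap (log2 fold change 1.33, SE 0.56, edgeR adjusted p = 0.395). In F0 the same arm was at 17.98, 10.3 and 17.8 TPM in NHS and 16.5, 6.61 and 22.5 TPM in Con, which overlap. The other 2 by p in F2 were miR-669m-5p, at 1.43, 0.362 and 0.615 TPM in F2 NHS and 9.62, 2.66 and 17.1 TPM in F2 Con (-3.66, SE 1.57, edgeR adjusted p = 0.411) and miR-466b-5p (3.16, SE 1.39, edgeR adjusted p = 0.434). With arms summed the log2 fold change was -0.14 (SE 0.72) for miR-669m, -0.44 (SE 0.64) for miR-466b, 2.18 (SE 0.80) for miR-466e and 0.65 (SE 0.39) for miR-466c.

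Averaged over the 3 generations, edgeR called 0 of 61 members (0 of 735 in all, 0%) and DESeq2 0 (12 in all, 1.63%). At an unadjusted p under 0.05 edgeR had 5 members, all higher, against a background of 7.76%. These were miR-466o-3p (log2 fold change 2.39, SE 0.75, edgeR adjusted p = 0.406), miR-466c-3p (1.07, SE 0.36, edgeR adjusted p = 0.463), and miR-467a-3p (1.15, SE 0.49), miR-467c-3p (1.60, SE 0.69) and miR-297c-5p (2.47, SE 1.08), and edgeR gave each of the last 3 an adjusted p of 0.621. miR-466o-3p was a low member. It stood at 2.92, 5.67 and 0.945 TPM in F0 NHS and at 0.235, 0.850 and 0.320 TPM in F0 Con. It was at 3.76 TPM in F1 NHS and at 0.586, 0.212 and 0.196 TPM in F1 Con, and at 1.77, 2.78 and 0.308 TPM in F2 NHS and 0.837, 0 and 0.612 TPM in F2 Con. The groups were apart in F0 and in F1, and overlapped in F2. Over all members 33 were higher and 28 lower, with a median of 0.09 against -0.02 over all tested miRNAs.

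The difference of the NHS effect between F2 and F0 was tested in the same model. edgeR called 0 of 61 members (0 of 735 in all, 0%), with 7 members at an unadjusted p under 0.05 against a background of 11.8%. DESeq2 called 2 members, miR-669d-2-3p and miR-466e-3p, with a background of 4.35% (32 of 735). By edgeR the difference was -4.37 for miR-669d-2-3p (SE 1.23, adjusted p = 0.184) and 3.93 for miR-466e-3p (SE 1.27, adjusted p = 0.230). For miR-669d with copies and arms summed the difference was 0.47. The other 3 members by p were miR-669l-5p, miR-466a-3p and miR-669p-3p, with edgeR adjusted p of 0.278, 0.302 and 0.355.

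The control groups show how far the members move between generations with no exposure in the line. In TPM, summed members averaged 1334 ± 702 TPM in F1 Con and 1559 ± 220 in F2 Con, against 1709 ± 878 in F0 Con. As a share of known miRNA reads they averaged 0.628% ± 0.0422 in F1 Con and 0.582% ± 0.103 in F2 Con, against 0.328% ± 0.129 in F0 Con, and neither later group overlapped F0 Con. The F0 Con libraries are also those with the most reads of known miRNAs and the highest smooth muscle miRNA sums of the 3 Con groups, and the part of these in the difference was not tested.

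In F1 Con against F0 Con, edgeR called 0 of 61 members (0 of 735 in all, 0%), with 6 members at an unadjusted p under 0.05, all higher, against a background of 17.3%. DESeq2 called 2, miR-297a-3p and miR-669o-5p, against a background of 7.89%. Under TMM scaling 42 of 61 members were higher, with a median log2 fold change of 0.49 and 0.07 over all tested miRNAs, while scaling by library totals left 19 higher, with a median of -0.57 and -0.88 over all. miR-297a-3p, with the smallest p, stood at 7.43, 1.15 and 51.4 TPM in F1 Con and at 4.31, 3.26 and 2.62 TPM in F0 Con (log2 fold change 3.13, SE 0.98, edgeR adjusted p = 0.154). Its level in F1 Con rested on replicate 3, and the groups overlapped.

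In F2 Con against F0 Con, edgeR called 0 of 61 members, where 1 of 735 miRNAs was called (0.136%), with 5 members at an unadjusted p under 0.05 against a background of 18.5%. DESeq2 called 4 members, miR-669l-5p, miR-669p-3p, miR-669o-5p and miR-669d-2-3p, against a background of 11.8%. With arms and copies summed, the log2 fold changes of these precursors were smaller, at 0.90 (SE 0.62) for miR-669l, 0.83 (SE 1.03) for miR-669p, 0.37 (SE 0.59) for miR-669o and -0.14 (SE 0.50) for miR-669d. miR-669l-5p stood at 44.3, 39.9 and 30.7 TPM in F2 Con and at 11.1, 1.70 and 10.6 TPM in F0 Con, with no overlap (log2 fold change 2.90, SE 0.90, edgeR adjusted p = 0.130). miR-669o-5p stood at 39.5, 25.1 and 70.9 TPM in F2 Con and at 12.1, 3.73 and 11.3 TPM in F0 Con, with no overlap (2.82, SE 0.999, edgeR adjusted p = 0.166). How many of all tested miRNAs had no overlap in this comparison was not counted. miR-669p-3p stood at 119, 4.26 and 5.20 TPM in F2 Con and at 3.45, 2.31 and 3.04 TPM in F0 Con, so its size rests on F2 Con replicate 1 (4.26, SE 1.38, edgeR adjusted p = 0.142). Under TMM scaling 34 of 61 members were higher, with a median of 0.17 and -0.08 over all tested miRNAs, and by library totals 22 were higher, with a median of -0.39 and -0.54 over all.

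In F2 Con against F1 Con, edgeR called 0 of 61 members (0 of 735 in all, 0%), with 2 at an unadjusted p under 0.05, both lower, against a background of 9.12%. DESeq2 called 1, miR-297a-3p, against a background of 2.31%. It stood at 1.34, 2.43 and 1.65 TPM in F2 Con and at 7.43, 1.15 and 51.4 TPM in F1 Con (log2 fold change -3.55, SE 1.002, edgeR adjusted p = 0.287), so the same F1 Con library is behind both control comparisons of this member. Under TMM scaling 24 of 61 members were higher, with a median of -0.21 and -0.10 over all tested miRNAs, and by library totals 35 were higher, with a median of 0.21 and 0.38 over all. In these comparisons of Con groups the change of scaling moved the median of all miRNAs along with that of the members.

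With arms and copies summed, edgeR called 42 of 461 precursors in F1 Con against F0 Con (9.11%) and 47 in F2 Con against F0 Con (10.2%). Of the 34 tested member precursors it called 0 in each, and 6 and 4 had an unadjusted p under 0.05, where the background was 31.5% and 29.9%. The smallest adjusted p of a member precursor was 0.0570, for miR-297a in F1 Con against F0 Con (log2 fold change 2.67, SE 0.84).

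Other miRNAs of related sequence or imprinted loci were read in the same fits. miR-574 and miR-1187, which each have a mature strand rich in UG, had 1 of 3 listed arms higher and 2 lower in F0, in F1 and in F2 NHS against Con. Of the imprinted Dlk1-Dio3 cluster on another chromosome, 62 of 87 listed members were tested. In F0 39 were higher and 23 lower (median log2 fold change 0.50), in F1 26 and 36 (-0.26), and in F2 29 and 33 (-0.05), with 0 called by edgeR in each. Other imprinted miRNAs, 9 tested of 21 listed, had 6, 2 and 6 higher in F0, F1 and F2, with 0 called.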

How the data were processed

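Per the file headers, the authors deposited a read count and a TPM value per small RNA and library; per the submitters' processing notes the build was mm10. Counts are whole reads. In the 13 libraries with complete lists, the deposited TPM equals the count per 1000000 listed reads in 100% of entries. Among the used libraries, the lists of F1 NHS 2, F2 NHS 2 and F2 NHS 3 hold 42.3%, 35.7% and 40.3% of the reads. Their totals were inferred by dividing counts by deposited TPM values, and the match cannot check them. All Con libraries have complete lists. No source used here gives the aligner, the counter or the handling of reads that match several members. The deposited table ends at line 96730, which left 16 libraries with whole known miRNA lists. Counts were fitted with edgeR 4.0.16 (R 4.3.3; TMM, library size the total reads, quasi-likelihood, Benjamini-Hochberg over all tested miRNAs, two-sided, all 6 groups in 1 model), keeping miRNAs at 1 CPM or more in at least 3 libraries (735). With 1 library, F1 NHS takes its spread from the remaining groups. The SE given with edgeR values is the absolute log2 fold change divided by the square root of the test's F statistic. DESeq2 1.42.0 was the alternative. The fits were tested on simulated data. Floors cover counting error only, since no molecular identifiers mark PCR copies. Sums and shares have no test. Named are the 12 members with the highest mean TPM, the 5 with the smallest p in each comparison, and any called. The members and lists were chosen with earlier results of these data known. Hairpin positions come from RefSeq GRCm38.p6, and their strands and the Sfmbt2 gene from GENCODE M21.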

Additional observations from a re-analysis of the deposited data

Results flagged for a closer look

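In a test of the difference, DESeq2 called the NHS effect different between F2 and F0 for 2 of 61 members. Over all tested miRNAs DESeq2 called 32 of 735 (4.35%), so the members' share was not above the background. miR-466e-3p had a log2 difference of 4.003 (DESeq2 adjusted p = 0.0337), with 6.36, 47.4 and 11.1 TPM in F2 NHS, 1.84, 2.60 and 4.55 TPM in F2 Con, 6.34, 6.46 and 1.70 TPM in F0 NHS and 9.25, 2.93 and 32.9 TPM in F0 Con. miR-669d-2-3p had a log2 difference of -4.37 (DESeq2 adjusted p = 0.0148), with 2.004, 3.26 and 3.31 TPM in F2 NHS and 11.3, 1.27 and 4.63 TPM in F2 Con, and 3.67, 25.2 and 9.88 TPM in F0 NHS and 0.941, 0.850 and 2.94 TPM in F0 Con. edgeR called neither (adjusted p of 0.230 and 0.184), and 0 of 735 miRNAs in all. With arms and copies summed the difference was 3.61 (SE 1.11, edgeR adjusted p = 0.0958) for miR-466e and 0.47 (SE 0.71) for miR-669d.

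miR-669l-5p lay in opposite directions in the 2 generations. All 3 F0 NHS libraries (36.2, 22.02 and 17.7 TPM) were above all 3 F0 Con libraries (11.1, 1.70 and 10.6 TPM), and all 3 F2 NHS libraries (3.78, 20.5 and 27.3 TPM) were below all 3 F2 Con libraries (44.3, 39.9 and 30.7 TPM). Over all 735 tested miRNAs, 59 (8.03%) were higher with no overlap in F0 and 34 (4.63%) were lower with no overlap in F2. How many did both was not counted. The log2 difference of the NHS effect for miR-669l-5p was -3.32 (SE 1.22, edgeR adjusted p = 0.278), which did not pass the threshold. With arms summed miR-669l had a log2 fold change of 0.12 (SE 0.61) in F0 and -0.25 (SE 0.61) in F2, and the difference was -0.37 (SE 0.87).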

How the results depend on the processing

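Counts of called miRNAs moved most with the tool. DESeq2 called 1, 7 and 28 in NHS against Con of F0, F1 and F2, 12 for the mean, 32 for the difference between F2 and F0, and 58, 87 and 17 in F1 Con against F0 Con, F2 Con against F0 Con and F2 Con against F1 Con. With no filter (1739 tested) edgeR called 3 in F2, 5 for the difference, and 4, 14 and 8 in the same Con comparisons. Scaling by library totals gave 19 and 2 in F1 Con and F2 Con against F0 Con, and summing arms and copies 42 and 47. A term for libraries rich or poor in tRNA-Ala reads gave 1 in F0, 1 in F1, 1 for the mean, 2 in F2 Con against F0 Con and 1 in F2 Con against F1 Con. Fitting only the groups compared gave 0 in F2 Con against F0 Con. Leaving out 1 library gave 0 to 3 calls in F2 Con against F0 Con, 0 to 1 in F1 Con against F0 Con and in F2 Con against F1 Con, and 0 in the other comparisons. A replicate block gave 1 call in F2 Con against F0 Con and 0 elsewhere. Same-numbered NHS and Con libraries of F0 and of F2 correlated at -0.219 to 0.1597 in their deviations from the group means. With so few libraries per group, these values cannot tell whether the numbers pair the libraries. The log2 ratio of summed members in F1 was 0.31 as a share of known miRNA reads, against 1.16 in TPM; leaving out 1 library gave -0.38 to 0.33 in F0, 0.93 to 1.68 in F1 and 0.09 to 0.55 in F2. Of the values of named members, 3 changed sign with arms and copies summed: miR-466b-5p in F2 (-0.44), and miR-669d-2-3p in the difference (0.47) and in F2 Con against F0 Con (-0.14). DESeq2 made 9 calls on 6 members that edgeR did not call, and edgeR with no filter called miR-669p-3p in F2 Con against F0 Con (adjusted p = 0.0286), which DESeq2 called as well. The cause of these changes was not tested. With complete lists alone, no F1 NHS library was left, so F1 and the mean had no value. Library totals, RLE scaling, a minimum of 10 reads and complete lists alone called no member. Depth limits members under 1 TPM, which rest on few reads per library, and only 1 F1 NHS library was available for these miRNAs.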
